A study of Mus musculus with 7 samples.

Results

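The genes described here encode the cytochromes P450 of the mouse and the enzyme that hands them electrons. They were taken as every gene symbol of the deposited expression table that starts with Cyp followed by a digit, 99 genes, together with Por, which gives 100 of the 22173 genes listed. By family these were 3 Cyp1, 48 Cyp2, 9 Cyp3, 20 Cyp4 and 19 genes of the remaining families. RNA sequencing covered 7 spleens of mice, 4 of them prepared with 4 injections of a biomaterial named sHA-X in the labels and 3 with phosphate-buffered saline (PBS) in its place. Both groups had also received hepatocytes into the spleen, and tissue was taken 30 days after that transplantation, so the comparison is of sHA-X with PBS and no library comes from a spleen without transplanted cells. The labels give no strain, age, sex or donor of the hepatocytes, and do not say whether each library is a separate animal. P-values therefore measure the spread between these libraries, which may be technical.

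Cytochromes P450 are haem enzymes that insert an oxygen atom from O2 into lipids, steroids, bile acids, vitamins and drugs. Most sit in the endoplasmic reticulum and take electrons from Por, the NADPH-cytochrome P450 oxidoreductase, while a few work in mitochondria with ferredoxin. Hepatocytes carry the densest set, chiefly of the Cyp1a, Cyp2 and Cyp3a subfamilies that clear drugs and of the enzymes that make bile acids, whereas spleen cells use a smaller set for fatty acids, oxysterols, retinoids and leukotrienes.

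All levels are FPKM (fragments scaled to transcript length and sequencing depth), so that genes and libraries can be set side by side, and values are listed in the order of replicates 1 to 3 for PBS and 1 to 4 for sHA-X. Whole reads recovered from the FPKM steps summed to between 29543963 and 37141978 per library. B cell markers such as Cd79a and Ms4a1 marked all 7 libraries as spleen (summed over 8 markers, 1681 to 2010 FPKM with PBS and 1133 to 1309 FPKM with sHA-X). Some libraries stood apart by markers of other tissues. The 18 hepatocyte markers summed to 2.35, 11.99 and 4.80 FPKM in the PBS libraries and to 10.8, 29.9, 1056 and 1054 FPKM in the sHA-X libraries, and none of the 18 was at 0 throughout. Pancreatic acinar markers summed to 1022 FPKM in PBS replicate 2 against at most 35.2 FPKM elsewhere, and in sHA-X replicate 2 skeletal muscle markers summed to 212.5 FPKM and adipocyte markers to 133.5 FPKM, against at most 16.4 and 72.8 FPKM elsewhere.

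The P450 genes fell into a liver-type set that was high only in replicates 3 and 4 of sHA-X and a spleen set that was present in all 7 libraries. Of the 99 genes, 27 reached at least 0.5 FPKM in both replicates 3 and 4 of sHA-X and were there at least 5 times the highest of the other 5 libraries. Another 16 had a mean of at least 1 FPKM over the 7 libraries, 35 were detected at lower levels, and 21 were at 0 in every library. The first set held 1 Cyp1, 19 Cyp2, 2 Cyp3 and 4 Cyp4 genes and 1 other gene (Cyp8b1), while the second held 1 Cyp1, 3 Cyp2, no Cyp3, 6 Cyp4 and 6 other genes. These sets were drawn from the values themselves and are descriptions, with no test.

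**Figure D1:**
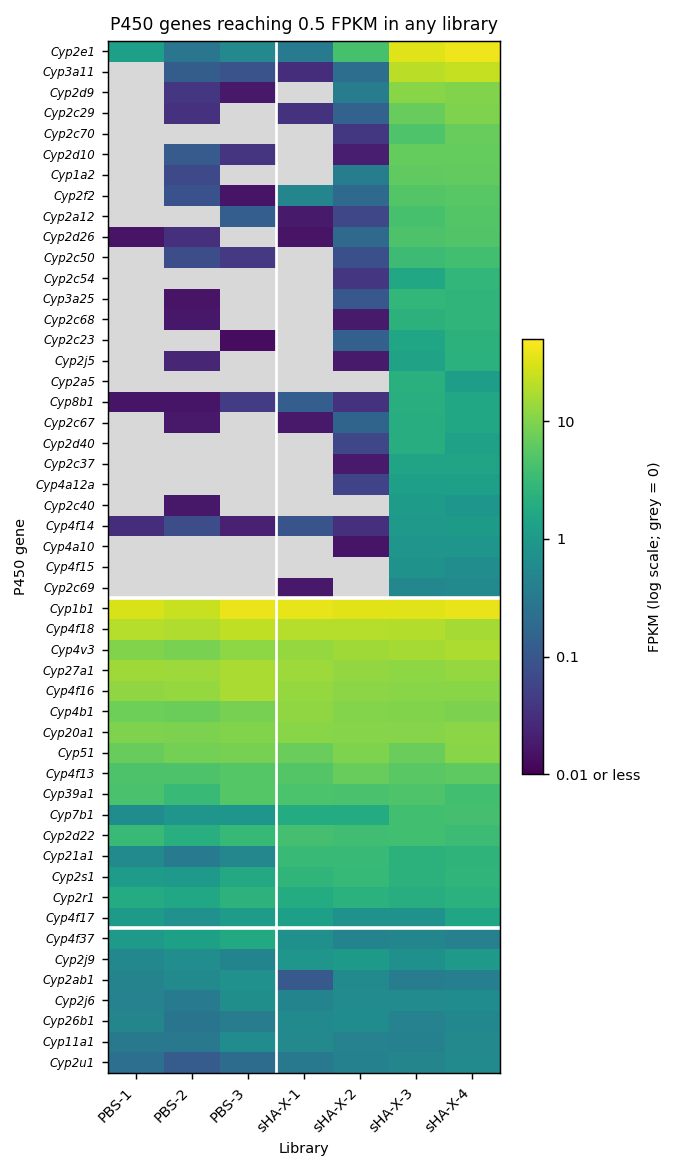
FPKM (colour, log scale from dark blue to yellow, grey for 0) of the 50 P450 genes that reached 0.5 FPKM in any library (rows), by library (columns), with white lines between the sets and between PBS and sHA-X. The 27 genes of the upper block are grey or blue outside replicates 3 and 4 of sHA-X, and the 16 genes of the middle block are green to yellow in most libraries, with Cyp21a1 and Cyp7b1 bluer in PBS.

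Summed over families, the Cyp2 and Cyp3 genes set the 2 liver-type libraries apart and the Cyp1, Cyp4 and remaining families hardly did. The 48 Cyp2 genes summed to 9.15, 7.13 and 10.3 FPKM with PBS and 11.5, 17.4, 107.1 and 121.7 FPKM with sHA-X, and the 9 Cyp3 genes to 0, 0.138 and 0.0873 FPKM with PBS and 0.0610, 0.338, 23.9 and 26.9 FPKM with sHA-X. Cyp4 sums were 56.5, 54.0 and 67.5 FPKM against 64.3, 64.1, 67.1 and 66.5 FPKM, and Cyp1 sums were 30.2, 25.0 and 38.9 FPKM against 37.0, 34.1, 39.3 and 44.1 FPKM. The remaining families summed to 38.3, 36.9 and 43.8 FPKM with PBS and to 44.0, 43.9, 43.9 and 48.8 FPKM with sHA-X. The 27 genes high only in replicates 3 and 4 of sHA-X made up 46.9% and 48.2% of all P450 FPKM in those libraries, 4.10% in sHA-X replicate 2, 0.738% in sHA-X replicate 1 and 0.601 to 0.966% in the PBS libraries. The 16 spleen genes summed to 128.2, 118.0 and 153.9 FPKM with PBS and 150.8, 148.3, 143.2 and 153.0 FPKM with sHA-X, so that their total overlapped between the groups.

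**Figure D2:**
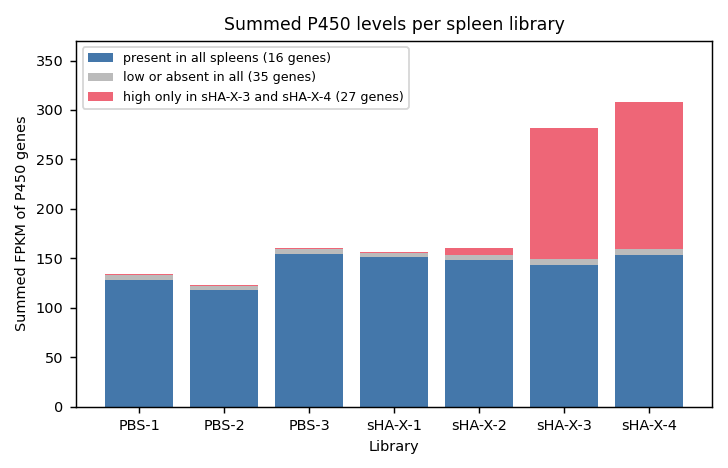
Summed FPKM of the P450 genes in each library (stacked bars from 0), divided into the 16 spleen genes, the 35 genes detected at lower levels and the 27 liver-type genes. The spleen part lies between 118.0 and 153.9 FPKM in all libraries, and the liver-type part is visible above it at 6.56, 132.0 and 148.4 FPKM in replicates 2 to 4 of sHA-X.

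The liver-type set was led by enzymes of drug, steroid and bile acid metabolism, and it was close to empty in the PBS libraries and in sHA-X replicate 1. Cyp2e1, which oxidises ethanol, acetone and paracetamol, was at 33.0 and 40.4 FPKM in replicates 3 and 4 of sHA-X, beside 4.19 FPKM in sHA-X replicate 2, 0.320 FPKM in sHA-X replicate 1 and 1.23, 0.284 and 0.560 FPKM with PBS. Cyp3a11, a mouse counterpart of human CYP3A4 and the main drug hydroxylase of its family, followed at 20.8 and 23.8 FPKM, beside at most 0.213 FPKM in the other 5 libraries. Cyp2d9, a steroid 16-alpha-hydroxylase known as male-biased in mouse liver, had 11.05 and 10.1 FPKM in the same 2 libraries, 0.368 FPKM in sHA-X replicate 2, 0 in sHA-X replicate 1 and 0, 0.0379 and 0.0181 FPKM with PBS. That all 3 genes share the pair of high libraries follows from how the set was chosen. For Cyp2e1 the values of sHA-X replicate 1 and of the PBS libraries overlapped.

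Other members of this set were at or near 0 in the low libraries. Cyp2c29, an epoxygenase of arachidonic acid, was 6.89 and 9.61 FPKM in replicates 3 and 4 of sHA-X, with 0.0343 and 0.148 FPKM in replicates 1 and 2 of sHA-X and 0, 0.0342 and 0 FPKM with PBS. Cyp2c70, which makes the muricholic bile acids of rodents, was listed at 0 in the PBS libraries and in sHA-X replicate 1, and reached 0.0395, 4.86 and 6.79 FPKM in replicates 2 to 4 of sHA-X. Cyp1a2, the caffeine-oxidising enzyme, was 6.15 and 6.36 FPKM in replicates 3 and 4 of sHA-X, 0.374 FPKM in sHA-X replicate 2 and 0, 0.0661 and 0 FPKM with PBS, and at 0 in sHA-X replicate 1. Its relative Cyp1a1, the dioxin-inducible form, did not share the pattern and lay between 0.0770 and 0.268 FPKM in all 7 libraries.

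Cyp2f2, which oxidises naphthalene and marks the portal side of the liver lobule, was 5.08 and 5.52 FPKM in replicates 3 and 4 of sHA-X, with 0.482 and 0.185 FPKM in replicates 1 and 2 of sHA-X and 0, 0.0859 and 0.0164 FPKM with PBS. Cyp2d10 was 6.75 and 6.57 FPKM there, beside 0 and 0.0205 FPKM in replicates 1 and 2 of sHA-X and 0, 0.114 and 0.0363 FPKM with PBS. Cyp2d26 was 4.69 and 4.97 FPKM in the 2 high libraries, 0.0159 and 0.188 FPKM in replicates 1 and 2 of sHA-X, and 0.0158, 0.0318 and 0 FPKM with PBS. The markers of both sides of the lobule, Cyp2e1 and Cyp1a2 on the central side and Cyp2f2 on the portal side, were thus present together in replicates 3 and 4 of sHA-X.

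Cyp2a12, a bile acid 7-alpha-hydroxylase, was 4.22 and 5.15 FPKM in replicates 3 and 4 of sHA-X, 0.0188 and 0.0607 FPKM in replicates 1 and 2 of sHA-X, and 0, 0 and 0.125 FPKM with PBS. Cyp2c50 reached 3.46 and 3.77 FPKM, beside at most 0.0805 FPKM in any other library, and Cyp2c54 reached 1.64 and 2.86 FPKM, beside 0.0380 FPKM in sHA-X replicate 2 and 0 in the other 4. The remaining 15 genes of the set, Cyp3a25, Cyp2c68, Cyp2c23, Cyp2j5, Cyp2a5, Cyp8b1, Cyp2c67, Cyp2d40, Cyp2c37, Cyp4a12a, Cyp2c40, Cyp4f14, Cyp4a10, Cyp4f15 and Cyp2c69, had highest values between 0.576 and 2.79 FPKM. Of the 27 genes, 9 were at 0 in all 3 PBS libraries, 17 in sHA-X replicate 1 and 4 in sHA-X replicate 2. In whole spleens, fewer hepatocytes and less RNA per hepatocyte cannot be told apart.

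The thresholds left a few genes close by. Cyp2e1 was nearest to the ratio of 5, at 7.88 times its highest other library, followed by Cyp2f2 at 10.5 times. Cyp2c69 was nearest to the level of 0.5 FPKM, at 0.524 and 0.576 FPKM. Just outside, with the same pair of high libraries, were the fatty acid hydroxylases Cyp4a12b at 0.425 and 0.235 FPKM, Cyp4a32 at 0.232 and 0.311 FPKM and Cyp4a14 at 0.156 and 0.305 FPKM, together with Cyp3a13 at 0.258 and 0.335 FPKM.

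The promoters of this set are shown because TATAAA, CAAAGTCCA and GTTAAT occurred in larger shares of them than of all genes. These motifs also occurred in promoters of P450 genes outside the liver-type and spleen sets, as given below. RefSeq promoters (build GRCm38.p6) run from 250 bases before to 50 bases after an annotated start site. They are written 5′ to 3′ on the strand of the gene. They were matched for 78 of the 100 genes, among them 23 of the 27 liver-type and 11 of the 16 spleen P450 genes. In the sequences below, capitals mark TATAAA (the TATA box), GTTAAT (a half-site of HNF1), CAAAGTCCA (a site of the HNF4 type) and GCGTG (the core of the xenobiotic response element of the Ah receptor), read on either strand (a reverse TATAAA is written TTTATA and a reverse GCGTG is written CACGC), and no capitals overlap. The first 5 belong to liver-type genes, at chr7:140763569-140763868 on the plus strand (Cyp2e1), chr5:145879805-145880104 on the minus strand (Cyp3a11), chr15:82452127-82452426 on the plus strand (Cyp2d9), chr9:121916256-121916555 on the minus strand (Cyp8b1) and chr19:40187237-40187536 on the minus strand (Cyp2c70). The last 2 belong to genes present in all spleens, at chr5:135688895-135689194 on the plus strand (Por) and chr8:45333114-45333413 on the minus strand (Cyp4v3). The stretch of Por surrounds a start site inside the gene, which spans 135670040 to 135735326.
Cyp2e1: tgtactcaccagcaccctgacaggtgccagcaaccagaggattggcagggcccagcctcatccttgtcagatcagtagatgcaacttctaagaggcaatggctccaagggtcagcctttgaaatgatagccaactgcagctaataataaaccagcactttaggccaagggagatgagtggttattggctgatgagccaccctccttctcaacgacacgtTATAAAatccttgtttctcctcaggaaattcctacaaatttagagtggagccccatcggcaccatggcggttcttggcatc
Cyp3a11: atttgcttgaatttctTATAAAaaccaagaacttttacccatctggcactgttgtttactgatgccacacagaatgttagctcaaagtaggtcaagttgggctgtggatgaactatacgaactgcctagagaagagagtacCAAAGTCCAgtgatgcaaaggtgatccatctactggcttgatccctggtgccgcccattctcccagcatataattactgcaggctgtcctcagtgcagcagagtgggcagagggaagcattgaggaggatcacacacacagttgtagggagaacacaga
Cyp2d9: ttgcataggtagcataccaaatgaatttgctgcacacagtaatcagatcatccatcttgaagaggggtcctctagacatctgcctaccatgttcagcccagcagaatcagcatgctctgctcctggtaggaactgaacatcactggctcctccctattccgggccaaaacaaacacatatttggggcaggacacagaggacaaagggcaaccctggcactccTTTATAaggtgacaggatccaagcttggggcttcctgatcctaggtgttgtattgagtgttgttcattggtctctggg
Cyp8b1: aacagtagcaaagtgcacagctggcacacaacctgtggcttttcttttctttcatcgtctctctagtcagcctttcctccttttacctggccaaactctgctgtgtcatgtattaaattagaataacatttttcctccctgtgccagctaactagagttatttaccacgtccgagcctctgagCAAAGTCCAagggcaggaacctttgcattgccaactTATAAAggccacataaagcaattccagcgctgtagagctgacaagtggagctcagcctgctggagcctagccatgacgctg
Cyp2c70: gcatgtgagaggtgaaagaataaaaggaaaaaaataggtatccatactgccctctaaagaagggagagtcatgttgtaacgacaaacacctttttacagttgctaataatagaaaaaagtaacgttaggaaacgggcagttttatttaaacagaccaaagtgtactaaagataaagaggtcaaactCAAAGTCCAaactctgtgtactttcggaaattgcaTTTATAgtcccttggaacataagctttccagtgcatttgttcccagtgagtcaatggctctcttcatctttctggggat
Por: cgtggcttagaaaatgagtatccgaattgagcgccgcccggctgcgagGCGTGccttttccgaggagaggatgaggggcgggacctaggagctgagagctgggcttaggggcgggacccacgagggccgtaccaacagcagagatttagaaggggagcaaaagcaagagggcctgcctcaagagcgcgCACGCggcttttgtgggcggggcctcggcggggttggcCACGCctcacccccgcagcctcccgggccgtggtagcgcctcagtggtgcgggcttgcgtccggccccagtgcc
Cyp4v3: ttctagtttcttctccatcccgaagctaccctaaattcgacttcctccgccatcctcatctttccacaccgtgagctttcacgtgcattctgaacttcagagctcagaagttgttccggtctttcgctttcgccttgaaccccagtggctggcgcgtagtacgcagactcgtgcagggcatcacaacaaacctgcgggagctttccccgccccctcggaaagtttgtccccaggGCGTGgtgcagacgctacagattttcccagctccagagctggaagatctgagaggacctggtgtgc

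TATAAA on either strand occurred in 16 of the 23 liver-type promoters (69.6%), in none of the 11 spleen P450 promoters and in 15.7% of the 27025 genes with a promoter of this length. It was also in 12 of 26 P450 genes detected at lower levels (46.2%) and in 5 of 17 at 0 in every library (29.4%). In Cyp2e1 and Cyp8b1 it starts 31 bases before the start of the gene, in Cyp2c70 and Cyp2d9 the reverse strand carries it at -29 and -28, and in Cyp3a11 it lies far upstream at -234. A sense TATAAA that starts between -35 and -20 was found in 4 of the 23 (17.4%), in 5 of the 26 P450 genes at lower levels (19.2%), in 1 of the 17 at 0 (5.88%) and in 2.22% of all genes. CAAAGTCCA was in 7 of the 23 (30.4%), in none of the 11 and in 0.555% of all genes. It was also in 3 of the 26 P450 genes at lower levels (11.5%) and in 1 of the 17 at 0 (5.88%). The 7 genes were Cyp2c40, Cyp2c67, Cyp2c68, Cyp2c69, Cyp2c70, Cyp3a11 and Cyp8b1. Of these, Cyp2c40, Cyp2c67, Cyp2c68 and Cyp2c69 share 43.3 to 72.1% of their 50-base transcript stretches with other Cyp genes, and Cyp2c70 shares 0%. The motif begins at -109 in Cyp3a11, -67 in Cyp8b1 and -64 in Cyp2c70. GTTAAT was in 6 of 23 (26.1%), none of 11, 3 of 26 at lower levels (11.5%), 2 of 17 at 0 (11.8%) and 8.24% of all genes. With shares of 15.7% or less over all genes, the absence of TATAAA, CAAAGTCCA and GTTAAT from only 11 promoters is not informative.

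For GCGTG the shares ran the other way. It was in 6 of the 11 spleen P450 promoters (54.5%), in 2 of the 23 liver-type promoters (8.70%) and in 35.2% of all genes. With 11 promoters, the spleen share is too near that of all genes to be read as a trait of the set. The median share of G and C was 55.3% in the spleen promoters, 46.7% in the liver-type promoters and 52.7% over all genes. It was in 6 of 26 P450 genes at lower levels (23.1%) and in 3 of 17 at 0 (17.6%). The Por promoter holds it 3 times, at -202 in sense and at -62 and -24 on the reverse strand. These positions count from the start site inside the Por gene. The Cyp4v3 promoter holds it once, at -16. The ratio of observed to expected CpG had a median of 0.117 in the liver-type set, 0.152 in the P450 genes at lower levels, 0.174 in those at 0, 0.571 in the spleen P450 genes and 0.389 over all genes. Of 7 motifs searched on both strands, CAAAG, which is contained in CAAAGTCCA, was common everywhere (22 of 23, 9 of 11 and 57.4% of all genes), CCAAT was in 12 of 23, 6 of 11 and 41.1%, and TCACNCCAC, a sterol regulatory element, in 1 of 23, 0 of 11 and 1.44%. A match describes the letters only and not whether a factor binds there.

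Many liver-type genes belonged to subfamilies of several genes on 1 chromosome, whereas Cyp2e1, Cyp2f2 and Cyp8b1 were the lone genes of theirs. Of 15 Cyp2c genes on chromosome 19, 10 were high only in replicates 3 and 4 of sHA-X. All but 1 of the 15 lie between 39006940 and 40187286 (GRCm38), and Cyp2c23, which is among the 10, lies apart at 44005022 to 44029256. The genes Cyp2c39, Cyp2c65 and Cyp2c66 were at 0 in every library. The Cyp2d cluster on chromosome 15 had 4 of 8, with Cyp2d22 present in all spleens and Cyp2d11 and Cyp2d12 at 0. The Cyp3a genes on chromosome 5 had 2 of 9 and the Cyp4a genes on chromosome 4 had 2 of 8. None of the 5 Cyp2b genes on chromosome 7 belonged to the set, and their sum was 0.0833 to 0.301 FPKM in all libraries. Paralogs limit these counts: 39 of the 100 genes shared over 10% of their 50-base stretches with another Cyp gene, and for Cyp3a41a, Cyp3a41b, Cyp2c40, Cyp2c67 and Cyp2c69 the share was over 50%, so that their values are uncertain.

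The 2 libraries with the liver-type set did not hold it in exactly the same proportions. Albumin (Alb) was 0.271, 4.10 and 1.15 FPKM with PBS and 2.17, 8.49, 325.3 and 370.4 FPKM with sHA-X, so that sHA-X replicate 4 had 1.14 times the level of sHA-X replicate 3 (95% interval 1.12 to 1.16, from recovered reads, counting error only). The same ratio for the liver-type P450 genes had a median of 1.06 and ran from 0.521 for Cyp2a5, a coumarin hydroxylase, to 1.75 for Cyp2c54. For 25 genes an interval could be had. It held the ratio of Alb in 14 genes, lay above it in 6 and below it in 5, and in Cyp2e1 and Cyp2d10 it still overlapped the interval of Alb. Above it were Cyp2c54 at 1.75 (1.36 to 2.26, 97 and 189 reads), Cyp2j5 at 1.73, Cyp2c23 at 1.57, Cyp2c29 and Cyp2c70 at 1.40 each, and Cyp2e1 at 1.22 (1.15 to 1.30, 1946 and 2658 reads). Below it were Cyp2d40 at 0.642, Cyp8b1, the sterol 12-alpha-hydroxylase that makes cholic acid, at 0.756, Cyp2c67 at 0.827, Cyp2d9 at 0.913 and Cyp2d10 at 0.974. Hepatocyte genes of other kinds differed as well, with Apoa1 at 0.911, Ttr at 0.833 and Fgb at 1.06. These intervals compare 2 libraries, not conditions.

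A weak trace of the set was present in sHA-X replicate 2, where Cyp2e1 stood out. The liver-type P450 genes were there at a median of 2.14% of their level in sHA-X replicate 3, near the 2.61% of Alb, but Cyp2e1 was at 12.7%, Cyp2c23 at 8.90%, Cyp2c67 at 7.77% and Cyp1a2 at 6.09%. Relative to Alb, Cyp2e1 was 49.4% in sHA-X replicate 2 and 10.2% and 10.9% in replicates 3 and 4 of sHA-X, whereas Cyp3a11 was 2.51%, 6.39% and 6.43% of Alb. Cyp2e1 is also transcribed in fat, and adipocyte markers were highest in sHA-X replicate 2: Adipoq, which encodes adiponectin, was 4.90 FPKM there against at most 1.87 FPKM elsewhere, and Cfd, which encodes adipsin, 30.1 FPKM against at most 6.61 FPKM. In PBS replicate 1, with almost no Alb, Cyp2e1 was 1.23 FPKM, Adipoq 1.09 FPKM and Cfd 5.87 FPKM, whereas PBS replicate 3 had more Adipoq (1.87 FPKM) and Cfd (6.61 FPKM) and less Cyp2e1 (0.560 FPKM). The part of adipocytes in the Cyp2e1 values was not tested.

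**Figure D3:**
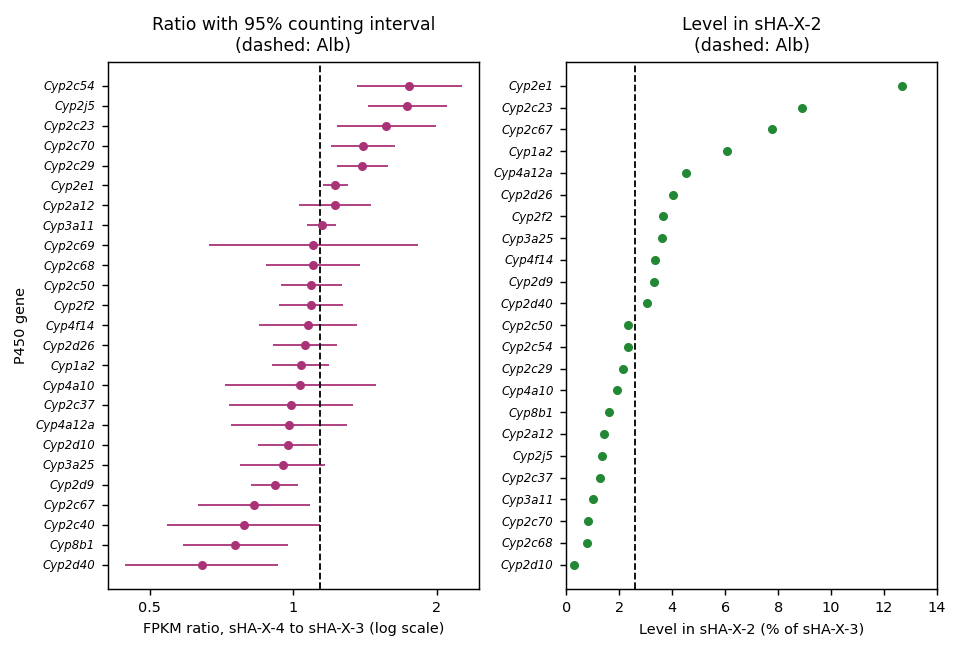
Ratio of the level in sHA-X replicate 4 to that in sHA-X replicate 3 for 25 liver-type P450 genes (points, with 95% counting intervals, log scale), and level in sHA-X replicate 2 as a percentage of sHA-X replicate 3 for the 23 genes above 0 there. Dashed lines mark Alb, at 1.14 and at 2.61%, and Cyp2e1 lies farthest from it among the percentages, at 12.7%.

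Genes known to differ between male and female liver ranged widely in level. Of the 4 male-biased genes, Cyp2d9 was at 11.05 and 10.1 FPKM in replicates 3 and 4 of sHA-X, Cyp4a12a, a fatty acid and arachidonic acid hydroxylase, at 1.23 and 1.21 FPKM and its near copy Cyp4a12b at 0.425 and 0.235 FPKM, and Cyp7b1, described below, was at 3.79 and 4.11 FPKM. Of the 11 female-biased genes, Cyp39a1 was present in all 7 libraries at 3.13 to 5.22 FPKM and Cyp17a1 lay between 0.0366 and 0.170 FPKM in all of them, while Cyp2b13 was at 0 in all libraries, Cyp2b9 at no more than 0.0387 FPKM, and Cyp3a16, Cyp3a41a, Cyp3a41b and Cyp3a44 at no more than 0.0153 FPKM. Cyp2a4 was detected only in sHA-X replicate 4, at 0.266 FPKM. Cyp2c40 at 1.10 and 0.864 FPKM and Cyp2c69 at 0.524 and 0.576 FPKM were present in replicates 3 and 4 of sHA-X, but they share 72.1% and 54.8% of their 50-base stretches with other Cyp genes. The Y-linked gene Ddx3y, looked up after these values were seen, was 28.0 to 38.2 FPKM in all 7 libraries. The sex of the hepatocyte donor cannot be read from it.

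The group test asked which of these genes differed between the 4 sHA-X and the 3 PBS libraries. It was run with limma on log2(FPKM + 1) over the 11920 genes with a mean of at least 1 FPKM, and a gene was called at a Benjamini-Hochberg adjusted p below 0.05. Fold changes on this scale understate the change of low genes. Of the 100 genes, 28 entered the test (16 spleen P450 genes, 11 liver-type genes and Por) and 72 were under the filter. Por, Cyp21a1, Cyp2s1, Cyp4v3, Cyp7b1 and Cyp4b1 rose, 6 of 28 (21.4%), beside 9.3% of all genes tested. None of the 28 was called lower, beside 5.03% of all genes. At an unadjusted p below 0.05 only Cyp27a1 was lower, and limma's voom test on recovered reads called none lower. In 10 of 28 genes every sHA-X library was above every PBS library (35.7%, beside 17.2% of all genes tested), and in none was every sHA-X library below (11.5% of all genes). Of the 28, 14 had a PBS mean under 1 FPKM and entered through their sHA-X values, so these shares are not read further. The called genes Cyp21a1 and Cyp7b1 were among these 14. The median log2 change was 0.61 over the 28 genes, 0.18 over the 16 spleen P450 genes and 0.03 over all genes tested.

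None of the 11 tested liver-type genes was called, with limma adjusted p-values of 0.24 to 0.39. In each of them 2 of the 4 sHA-X libraries were low, and the 95% interval of the change included 0. Cyp2e1, the highest of them, had a log2 change of 2.59 with a standard error of 1.34 and an adjusted p of 0.27. The set was chosen for high values in 2 of the 4 sHA-X libraries only, so a wide spread within that group was built in. The test therefore cannot decide whether the groups differ in these genes, and they are given as values per library.

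**Figure D4:**
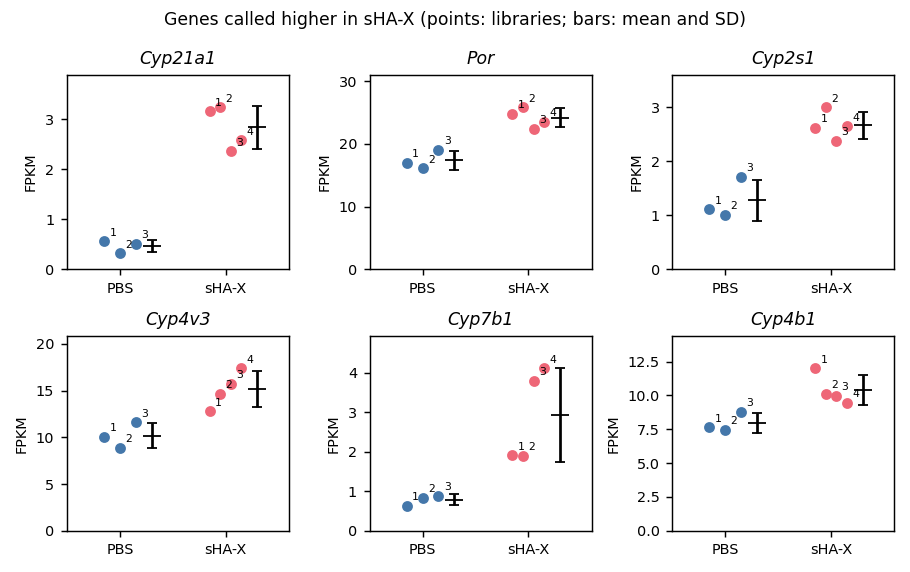
FPKM in each library (points, numbered by replicate) of the 6 genes called higher in sHA-X, with the group mean and SD beside them. In all 6 every sHA-X library lies above every PBS library.

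Por itself, the electron donor of the microsomal P450 enzymes, rose by about the same amount in every sHA-X library. It lies on chromosome 5 at 135670040 to 135735326 (RefSeq, GRCm38.p6, as for the genes below) and was 17.04, 16.2 and 19.1 FPKM with PBS and 24.8, 25.9, 22.4 and 23.5 FPKM with sHA-X. The groups did not overlap, and the 2 libraries with the liver-type set were the lowest of the sHA-X group. The means were 17.4 ± 1.49 (SD, n = 3) and 24.2 ± 1.504 (SD, n = 4), a log2 change of 0.45 ± 0.074 (SE) with a limma adjusted p of 0.0064. The call held without any 1 library (adjusted p up to 0.037).

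Cyp21a1, the steroid 21-hydroxylase of the adrenal cortex, had the smallest adjusted p among the P450 genes. Its PBS mean was under 1 FPKM (20 to 35 reads per library), so it passed the filter only through its sHA-X values. It lies on chromosome 17 at 34801348 to 34804426 and was 0.566, 0.325 and 0.513 FPKM with PBS and 3.16, 3.24, 2.36 and 2.58 FPKM with sHA-X. The means of 0.468 ± 0.126 (SD, n = 3) and 2.84 ± 0.432 (SD, n = 4) differed 6.06-fold, with a log2 change of 1.38 ± 0.11 (SE) and a limma adjusted p of 0.00042, which stayed at or below 0.0036 without any 1 library. Most other adrenal markers were at or near 0. Hsd3b1, a steroid dehydrogenase, was at 0 but for 0.054 FPKM in sHA-X replicate 4, Cyp11b1 was at 0 in all libraries, Mc2r, the receptor of adrenocorticotropin, was at most 0.080 FPKM, and Cyp11a1, which cleaves the cholesterol side chain, lay between 0.299 and 0.619 FPKM. Nr5a1, a transcription factor of adrenal and of spleen stroma, was 6.07 to 8.80 FPKM in all libraries and was not called. Star, which carries cholesterol into mitochondria, rose from 29.6 ± 5.01 (SD, n = 3) to 42.0 ± 2.66 FPKM (SD, n = 4; limma adjusted p = 0.019), a call that was lost without PBS replicate 1 or sHA-X replicate 1 (up to 0.069).

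Cyp21a1 lies among complement genes. In GENCODE M21 the complement gene C4b ends 57465 bases before Cyp21a1, and C4a begins 4530 bases after its end, all on the minus strand, so that C4a lies upstream of Cyp21a1 in the direction of transcription. C4b was 28.8, 22.5 and 27.9 FPKM with PBS and 74.0, 69.9, 58.3 and 65.8 FPKM with sHA-X, and rose by 1.31 ± 0.11 (SE) on the log2(FPKM + 1) scale (limma adjusted p = 0.0004). The means of C4b were 26.4 and 67.0 FPKM, a smaller ratio than that of Cyp21a1, whose low level this scale understates. C4a was not analysed here. Cyp21a1 also shares 23.7% of its 50-base stretches with its pseudogene Cyp21a2-ps, and how reads of the region were assigned was not tested.

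Cyp7b1, the oxysterol 7-alpha-hydroxylase of the acidic bile acid pathway, combined both patterns. With a PBS mean under 1 FPKM, it passed the filter only through its sHA-X values. On chromosome 3 at 18071944 to 18243890, it was 0.635, 0.838 and 0.890 FPKM with PBS, 1.91 and 1.89 FPKM in replicates 1 and 2 of sHA-X, and 3.79 and 4.11 FPKM in replicates 3 and 4 of sHA-X. The low sHA-X libraries already lay above all PBS libraries, and the 2 with the liver-type set were higher again. The log2 change was 1.09 ± 0.23 (SE; 0.788 ± 0.135 against 2.92 ± 1.19 FPKM, SD, n = 3 and 4) with a limma adjusted p of 0.021, which rose to 0.090 without PBS replicate 1 and 0.064 without PBS replicate 2.

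Cyp2s1, an extrahepatic P450 of epithelia and macrophages, was 1.11, 1.01 and 1.72 FPKM with PBS and 2.63, 3.01, 2.38 and 2.65 FPKM with sHA-X (chromosome 7, 25802469 to 25816525). It rose from 1.28 ± 0.382 (SD, n = 3) to 2.67 ± 0.257 FPKM (SD, n = 4), a log2 change of 0.69 ± 0.12 (SE; limma adjusted p = 0.0076), with no overlap between the groups. Cyp4v3, the counterpart of the human fatty acid hydroxylase CYP4V2, was 10.1, 8.91 and 11.6 FPKM with PBS and 12.8, 14.7, 15.7 and 17.4 FPKM with sHA-X (chromosome 8, 45305801 to 45333163). It rose from 10.2 ± 1.35 (SD, n = 3) to 15.2 ± 1.91 FPKM (SD, n = 4), a log2 change of 0.53 ± 0.11 (SE; limma adjusted p = 0.018), a call lost without PBS replicate 1 (0.074) or PBS replicate 2 (0.055). Cyp4b1, a fatty acid hydroxylase best known from lung, was 7.65, 7.46 and 8.79 FPKM with PBS and 12.01, 10.1, 9.999 and 9.46 FPKM with sHA-X (chromosome 4, 115624698 to 115647721). With means of 7.97 ± 0.721 (SD, n = 3) and 10.4 ± 1.11 FPKM (SD, n = 4), its log2 change of 0.34 ± 0.091 (SE) had a limma adjusted p of 0.040 and was lost when replicate 1 or 2 of PBS was left out, or replicate 1, 2 or 3 of sHA-X (up to 0.14).

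Several lists of cell markers also differed between sHA-X and PBS, beside 9.3% of all tested genes called higher and 5.03% called lower. Of 12 macrophage markers 8 rose, and their sum was 1156 to 1487 FPKM with PBS and 2088 to 2296 FPKM with sHA-X. Of 10 fibroblast markers 7 rose (sums 166 to 225 and 402 to 578 FPKM), of 5 tested mast cell markers 4 rose (14.6 to 18.1 and 21.3 to 26.0 FPKM), and of 10 neutrophil and monocyte markers 3 rose. Of 8 B cell markers 7 fell. Of 8 endothelial markers 1 rose and of 8 T cell markers 1 fell, counts too near the shares over all genes to be read as changes. No measured marker of these lists was at 0 in all libraries. Their part in the P450 values was not tested.

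**Figure D5:**
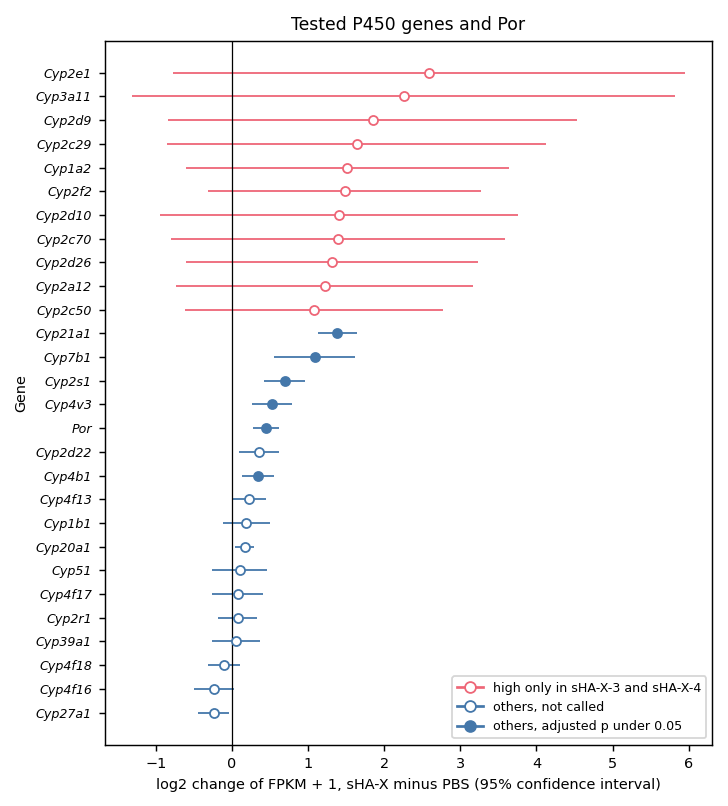
Log2 change of FPKM + 1, sHA-X minus PBS, of the 28 tested genes (points, filled where the adjusted p was under 0.05, with unadjusted 95% intervals from limma). The 11 liver-type genes have the widest intervals, all crossing 0, and the 6 filled points lie between 0.34 and 1.38.

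The most abundant spleen P450 genes were not called in either direction. Cyp1b1, which oxidises oestradiol and retinoids outside the liver, was the highest at 30.0, 24.8 and 38.7 FPKM with PBS and 36.9, 33.6, 32.9 and 37.6 FPKM with sHA-X, and the groups overlapped (log2 change 0.19 ± 0.13 SE, limma adjusted p = 0.39). Without PBS replicate 3, its highest library, the adjusted p was 0.037. Cyp4f18, which inactivates leukotriene B4 in mouse neutrophils, was 19.6, 17.9 and 21.9 FPKM against 19.1, 19.5, 18.8 and 15.8 FPKM (limma adjusted p = 0.47). Cyp27a1, the mitochondrial sterol 27-hydroxylase that macrophages and hepatocytes share, was 14.8, 14.2 and 17.1 FPKM with PBS and 14.3, 12.5, 11.6 and 13.0 FPKM with sHA-X, with a log2 change of -0.24 ± 0.088 (SE) and a limma adjusted p of 0.11. The libraries with the liver-type set were thus not raised for Cyp27a1.

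Cyp4f16 was 12.1, 12.9 and 16.9 FPKM against 13.1, 11.4, 10.9 and 11.2 FPKM (log2 change -0.24, limma adjusted p = 0.21). Cyp20a1, a P450 of unknown substrate, was 9.79, 9.19 and 9.87 FPKM with PBS and 11.2, 10.7, 10.7 and 11.2 FPKM with sHA-X; the groups did not overlap, but the change of 0.17 (log2) had a limma adjusted p of 0.079. Cyp51, the lanosterol demethylase of cholesterol synthesis, was 6.85, 8.32 and 8.64 FPKM against 7.07, 9.72, 7.12 and 10.9 FPKM and the groups overlapped (limma adjusted p = 0.72). Cyp2d22 lay at 3.13, 2.07 and 3.02 FPKM with PBS and 4.06, 3.64, 3.82 and 3.47 FPKM with sHA-X, again without overlap and with a limma adjusted p of 0.073. The remaining 4 genes of this set, Cyp4f13, Cyp39a1, Cyp2r1 and Cyp4f17, had means between 1 and 6 FPKM and limma adjusted p-values of 0.17 to 0.83.

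Set out by pathway, the bile acid enzymes were mixed. Cyp7a1, the rate-limiting enzyme of the classical route, was listed at 0 in the PBS libraries and in sHA-X replicate 1 and reached only 0.0788 and 0.103 FPKM (11 and 16 reads) in replicates 3 and 4 of sHA-X. Cyp8b1, a later P450 of cholic acid synthesis, was far higher in the same libraries at 2.15 and 1.62 FPKM, beside 0.0159 to 0.128 FPKM elsewhere. Cyp39a1, which acts on 24-hydroxycholesterol, was 4.28, 3.13 and 5.22 FPKM against 4.43, 4.38, 4.83 and 3.77 FPKM, and Cyp46a1, the cholesterol 24-hydroxylase known from brain, was 0.106 to 0.407 FPKM. Of the 6 genes, 3 were tested and Cyp7b1 alone was called.

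The vitamin, retinoid and steroid enzymes were low in all libraries but for Cyp2r1 and Cyp21a1. Cyp2r1, the vitamin D 25-hydroxylase, was 1.92, 1.57 and 2.49 FPKM with PBS and 1.89, 2.28, 2.02 and 2.33 FPKM with sHA-X (limma adjusted p = 0.72), while Cyp27b1, which makes the active hormone, was at most 0.0337 FPKM and Cyp24a1, which degrades it, at 0. Of the retinoic acid hydroxylases, Cyp26b1 was 0.488, 0.278 and 0.364 FPKM with PBS and 0.590, 0.627, 0.441 and 0.533 FPKM with sHA-X, with Cyp26a1 at 0.0161 to 0.203 FPKM and Cyp26c1 at no more than 0.0465 FPKM. Aromatase (Cyp19a1) was at 0, Cyp17a1 at no more than 0.170 FPKM, and Cyp11b2, the aldosterone synthase, was detected in sHA-X replicate 1 only, at 0.0649 FPKM. All of these but Cyp2r1 were under the filter of the test.

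The partners and regulators of the P450 enzymes were taken from 7 lists, which hold 94 genes beside Por. Of the 73 tested, 15 rose (20.5%) and 3 fell (4.11%), beside 9.3% and 5.03% of all genes, with a median log2 change of 0.13. The 6 calls that held without any 1 library were Cyb5r3, Cebpb, Hmox1, Blvra, Ptgs1 and Alox12. The other 12 were all lost without PBS replicate 1 (limma adjusted p 0.062 to 0.16), and 11 of them also without PBS replicate 2.

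Among 11 tested electron transfer genes, Por included, 3 rose. Beside Por, the cytochrome b5 reductase Cyb5r3 went from 40.9 ± 0.765 (SD, n = 3) to 53.2 ± 2.61 FPKM (SD, n = 4; log2 change 0.37, limma adjusted p = 0.0047), and Cyb5r1 from 12.6 to 15.5 FPKM (0.040). Among 13 tested regulators 3 rose and 1 fell. Cebpb, a transcription factor of liver and macrophages, went from 23.1 ± 1.72 (SD, n = 3) to 37.9 ± 3.90 FPKM (SD, n = 4; log2 change 0.69, limma adjusted p = 0.0026), the oxysterol receptor Nr1h3 from 28.6 to 39.5 FPKM (0.014) and Pparg from 4.53 to 6.69 FPKM (0.046), whereas Rxrb fell from 31.9 to 25.8 FPKM (0.023). Other listed regulators were not called, among them Cebpa (17.9 to 19.6 FPKM, limma adjusted p = 0.42), Rxra (0.15) and Nr3c1 (0.65). Hnf4a, Nr1i3 and Nr1i2, all at low levels, had their highest values in replicates 3 and 4 of sHA-X. Hnf4a was 0.047, 0.040 and 0.090 FPKM with PBS and 0.054, 0.043, 1.31 and 1.54 FPKM with sHA-X, and the xenobiotic receptors Nr1i3 and Nr1i2 reached 0.544 and 0.372 FPKM and 0.078 and 0.189 FPKM in replicates 3 and 4 of sHA-X, beside at most 0.078 FPKM and 0 elsewhere.

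All P450 enzymes need haem. Of 13 tested genes of haem synthesis and breakdown 2 rose, both encoding breakdown enzymes: Hmox1, haem oxygenase, from 277 ± 63.0 (SD, n = 3) to 589 ± 30.4 FPKM (SD, n = 4; log2 change 1.11, limma adjusted p = 0.0018) and Blvra, biliverdin reductase, from 22.0 to 31.1 FPKM (0.0016). Hmox2 (limma adjusted p = 0.079) and Blvrb (0.87) of breakdown and Alas1 (0.062), the first enzyme of synthesis, were not called. Of 11 tested eicosanoid genes beside the P450s, 4 rose, namely Ptgs1 (cyclooxygenase, 11.4 to 16.8 FPKM, limma adjusted p = 0.0029), Ephx2 (the soluble epoxide hydrolase, 3.44 to 5.61 FPKM, 0.035), Hpgds (7.01 to 10.9 FPKM, 0.043) and Pla2g4a (0.046), and Alox12, the platelet lipoxygenase, fell from 16.6 to 10.5 FPKM (log2 change -0.61, 0.0045). The P450-related synthases with other names were not called: Ptgis, prostacyclin synthase, was 5.66, 6.14 and 6.41 FPKM against 5.28, 8.11, 4.13 and 4.34 FPKM (limma adjusted p = 0.62), and Tbxas1, thromboxane synthase, lay under the filter at 0.727 to 1.03 FPKM. Among 14 tested genes of sterol synthesis around Cyp51, Fdps (limma adjusted p = 0.019), Tm7sf2 (0.032) and Ebp (0.046) rose.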

How the data were processed

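RNA from 7 spleens was extracted with TRIzol and made into libraries with the VAHTS Universal V6 kit, per the labels' protocols, and the tools listed, with no roles, in the submitters' processing notes are HISAT2, HTSeq, fastp, DESeq2 and R 3.2.0 with build mm10. The deposited table gives 1 value per gene and library with no unit in its header, and the values were read as FPKM computed by the authors. Whole reads (tolerance 0.02 of a read) came out for each of the 16889 genes detected in 2 or more libraries (the 704 genes detected in 1 library cannot be converted this way). Whole reads point to scaled counts, are easily found where few libraries are above 0, and do not show length scaling. The value of 1 read did differ between genes, such as 0.0158 for Cyp1a2 and 0.00579 for Cyp1b1 in sHA-X replicate 3. The unit itself was not tested. The sources used here do not say whether strand was kept. Here log2(FPKM + 1) of the 11920 genes with a mean of at least 1 FPKM was tested with limma 3.58.1 (R 4.3.3, trended robust variance, Benjamini-Hochberg), a procedure that was also tested on simulated data. Reads were used for counting intervals (95%, exact binomial), in genes above 0 in at least 3 libraries, and for voom. Named are Por, every called P450 gene, every P450 gene with a mean of at least 1 FPKM, the 12 highest liver-type genes by library, the genes of the pathway and sex-bias lists, up to 4 called members of each partner list, Tbxas1 and Ptgis. Some genes under this rule are not reported here. The members, lists and alternatives were chosen with earlier results of these data known. Sequences are RefSeq promoters, GRCm38.p6.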

Additional observations from a re-analysis of the deposited data

How the results depend on the processing

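Directions and calls of single genes were mostly the same under the alternatives (399 of the values computed for them), with 20 calls lost and 1 gained, and with 8 signs turned in genes that were not called. The 6 P450 and Por calls became 3 to 7 without 1 library and 2 without both second libraries (PBS replicate 2 with its acinar markers and sHA-X replicate 2 with its muscle markers), where Por and Cyp21a1 remained. The count of lower genes, 0, became 1 (Cyp4f37) with no filter and 1 in TPM. The 15 higher partner and regulator genes became 9 with no filter, 5 to 15 without 1 library and 5 without both second libraries, and the 3 lower ones 1 to 3 without 1 library. Correlations between same-numbered libraries were 0.15, -0.21 and -0.29, and between differently numbered ones -0.18 to 0.25. So few values cannot decide whether equal replicate numbers mark a pairing. With the replicate number as a block the counts were 1 P450 gene, and 3 higher and 1 lower partner genes. Signs turned in 4 genes. The log2 change of Cyp2r1 was -0.029 to 0.19 without 1 library and -0.052 without both second libraries. That of Cyp39a1 was -0.10 to 0.19 and -0.11. That of Cyp4f17 was -0.0066 without PBS replicate 2 and -0.019 with the block, and that of Cyp51 was -0.0030 to 0.19 without 1 library and -0.0030 with the block. The causes were not tested. Median ratio scaling moved the split over all genes from 1108 higher and 600 lower to 1001 and 843. The liver-type set held 26 genes at a ratio of 10, 27 at a ratio of 3 and 30 in TPM. Genes near 1 FPKM rest on few reads, and counting intervals leave out library preparation.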

Other observations

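Among the P450 genes under the filter, 51 could be fitted when limma was run with no filter on low values. Cyp4f37, a Cyp4f gene with no well-known substrate, was 0.993, 1.26 and 1.75 FPKM in PBS and 0.718, 0.456, 0.506 and 0.413 FPKM in sHA-X, with every sHA-X library below every PBS library (1.33 ± 0.385, SD, n = 3, against 0.523 ± 0.135, SD, n = 4; log2 change -0.61 ± 0.12 SE, limma adjusted p = 0.028). It shares 20.9% of its 50-base stretches with Cyp4f16, so its reads may be split between them. Cyp2u1, a hydroxylase of long-chain fatty acids, was 0.227, 0.121 and 0.205 FPKM in PBS and 0.309, 0.419, 0.487 and 0.575 FPKM in sHA-X, without overlap (log2 change 0.29, limma adjusted p = 0.046). Cyp2j9 did not overlap either, at 0.525, 0.646 and 0.463 FPKM against 0.838, 1.03, 0.716 and 0.981 FPKM, but was not called (limma adjusted p = 0.068). Such levels rest on 9 to 156 reads per library. The remaining detected genes under the filter included 28 that stayed below 0.5 FPKM in every library.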
